A study of Mus musculus with 12 samples.

Results

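The cytosolic ribosomal protein genes were taken by symbol from the deposited gene counts, as every Rpl and Rps row followed by a number with at most a short suffix, together with Rpsa, Rplp0, Rplp1, Rplp2 and Fau. Pseudogene rows ending in -ps and the Rps6k kinases were left out. The rule gave 85 of the 24062 gene symbols, 51 for the large and 34 for the small ribosomal subunit. It used no measured value. RNA was sequenced from 12 whole mouse kidneys at postnatal day 3, with 3 kidneys in each of 4 groups. LIN28B Wt1 mice carry a doxycycline-inducible human LIN28B transgene that is switched on through Wt1-Cre in early kidney progenitors and their descendants, and their controls were wild-type littermates, both groups of strain C57BL/6. For this model the study describes a short pulse of doxycycline in the drinking water late in gestation, to which littermate controls would be exposed through the same mother, and which of the alleles the controls carried is not given in the sources used here. The let-7 KO mice lack let-7a-1, let-7d and let-7f-1 in every cell, and their controls were wild-type littermates, both groups of a mixed CD1 and C57BL/6 strain. In each group 2 kidneys came from litter 1 and 1 kidney from litter 2 of its experiment, and the whole organ was used, so that fewer cells of a type and less RNA per cell cannot be told apart.

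The ribosome is built in the nucleolus and cytoplasm from ribosomal RNA and one copy of nearly every ribosomal protein, so cells keep these mRNAs at similar levels. The mRNAs are short and abundant, and most begin with a C followed by a run of pyrimidines, the terminal oligopyrimidine (TOP) tract, through which the mTOR pathway and Larp1 control their translation. LIN28B is an RNA-binding protein that blocks the maturation of let-7 microRNAs, and let-7 represses mRNAs that pair with its seed. Both act in the timing of nephron formation.

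The 3 microRNAs deleted in let-7 KO mice are shown because they share 1 seed, bases 2 to 8, in capitals. They lie next to each other on the minus strand of chromosome 13 (RefSeq, GRCm38.p6), let-7a at chr13:48538239-48538260, let-7f at chr13:48537889-48537910 and let-7d at chr13:48536078-48536099.
let-7a-5p: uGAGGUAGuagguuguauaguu
let-7f-5p: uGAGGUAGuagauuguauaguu
let-7d-5p: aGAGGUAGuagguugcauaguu
The complement of this seed, CTACCTC, was found in the longest annotated 3′ UTR (GENCODE M21) of 2 of 84 ribosomal protein genes, which is 2.38% against 9.22% of 19960 other genes. Ribosomal protein 3′ UTRs were also shorter, with a median of 156 bases against 992, and a match is a description of the letters only.

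The start sites are shown because they carry the feature that these mRNAs are known to share. RefSeq gave start sites for 64 of the 85 genes. A C followed by at least 4 bases that were each C or T began exactly at the annotated start in 14 of them (21.9%, against 2.96% of 26961 other genes) and within 3 bases of it in 26 (40.6%, against 13.4%), read on the strand of the gene. In the examples, 6 bases before and 16 bases from the annotated start are printed, with the tract in capitals. They are on the minus strand at chr14:18270971-18270992 for Rpl15 and chr7:45128730-45128751 for Rpl13a, and on the plus strand at chr9:120571511-120571532 for Rpl14, chr11:114668574-114668595 for Rpl38, chr7:141447645-141447666 for Rplp2 and chr19:6057941-6057962 for Fau (GRCm38.p6).
Rpl15: agcCTTCTTCCTTTCCTCTggc
Rpl13a: cgacaagaCCTCCTCCTTTCCC
Rpl14: ctctCTCTTCTCgctgagcgcc
Rpl38: ctcgttCTTTCCCCgttctctt
Rplp2: gtcttCCTTTCgccgccggacg
Fau: ccaCTTCTTCCTCTTTCTTgac

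Total counts ranged from 39926235 to 61872736 per kidney, where 3 counts equal 0.0485 to 0.0751 CPM, the count scaled to library size in which levels are given. The transgene is human, and the mouse Lin28b row had 232, 224 and 71 counts in the LIN28B Wt1 kidneys and 0, 18 and 33 in their controls. Mirlet7d was at 0 in the let-7 KO kidneys and at 0, 19 and 35 in their controls. Proximal tubule and cap mesenchyme markers were detected in each group, and within each group no pair of libraries was a copy of the other.

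Of the 85 genes, 82 passed the filter on low counts and 78 had at least 1000 counts in every kidney. Rpl10l, a retrocopy of the large-subunit gene Rpl10, had 0 counts in all 12 kidneys. Rpl39l, a copy of Rpl39, had 0 to 5 counts. Rpl26 had 0 counts in 11 kidneys and 1 in the other, and Rps27, Rpl30 and Rpl34 had only 16 to 61, 18 to 72 and 101 to 291 counts. Ribosomal protein genes have many near-identical processed copies in the genome, and how reads shared with such copies were counted is not given in the sources used here, so the counts of these rows, those at 0 included, are uncertain as a measure of the mRNA and set no upper limit on it. Rpl3l, the muscle form of Rpl3, had 0 to 89 counts. Among the highest levels per length were those of Rpl41, Rpl13, Rps14 and Rps19, at 1757, 1753, 1236 and 1088 CPM per kilobase of transcript.

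Together the 85 genes took a larger share of all counts in the mutant groups of both experiments, but the groups overlapped. In C57BL/6 control kidneys the share was 2.55%, 2.74% and 3.36% in replicates 1 to 3, against 4.93%, 5.17% and 3.13% in LIN28B Wt1 kidneys. The means were 2.88% ± 0.42 (SD, n = 3) and 4.41% ± 1.11 (SD, n = 3). The LIN28B Wt1 kidneys of litter 1 were well above every control, and the kidney of litter 2 was below its own littermate control. In the mixed-strain controls the share was 2.73%, 3.43% and 2.39%, against 3.21%, 4.31% and 5.25% in let-7 KO kidneys, with means of 2.85% ± 0.53 and 4.26% ± 1.02 (SD, n = 3). Here the kidney of litter 2 was the highest of all 12, and the lowest let-7 KO kidney was below the highest control. The large and small subunits both took their lowest share in mixed-strain control replicate 3, 1.41% and 0.979% of the counts. The large subunit was highest in let-7 KO replicate 3 (3.13%) and the small subunit in LIN28B Wt1 replicate 2 (2.14%).

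**Figure D1:**
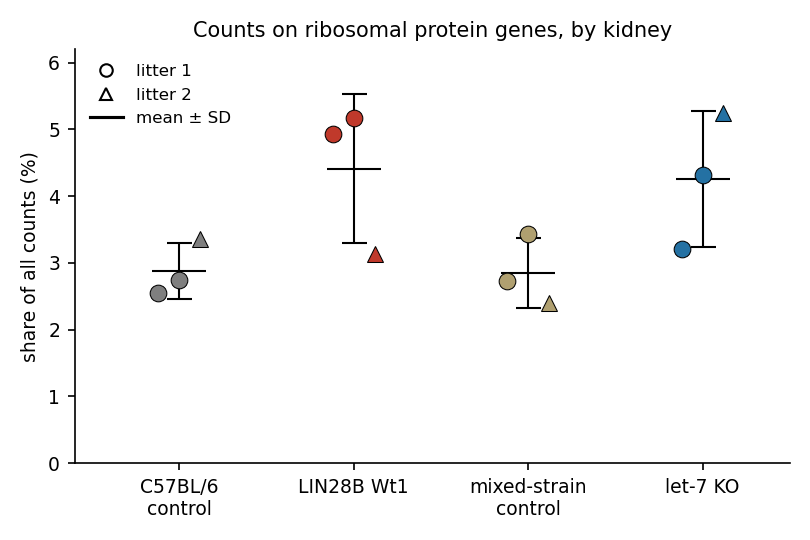
Share of all counts (%) on the 85 ribosomal protein genes in each kidney, by group, with circles for litter 1, triangles for litter 2, and the mean ± SD of 3 kidneys. The LIN28B Wt1 kidneys of litter 1 (4.93% and 5.17%) and the let-7 KO kidney of litter 2 (5.25%) are highest, and the LIN28B Wt1 kidney of litter 2 (3.13%) lies within the controls.

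Between LIN28B Wt1 and control kidneys, 34 of 82 ribosomal protein genes were higher at p below 0.01 in edgeR's quasi-likelihood test (41.5%) and 0 were lower. Over all 15793 genes tested, 3.25% were higher and 4.08% lower at this limit. The 82 genes had a median log2 fold change of 0.70, against -0.02 for all genes, and 81 of the 82 values were above 0. After Benjamini-Hochberg adjustment 0 of the 82 passed 0.05 in edgeR (1.23% of all genes did), while 77 had an unadjusted p below 0.05 (18% of all genes), and DESeq2 called 64 at an adjusted p below 0.05 (8.03% of all genes). The small and large subunits had median log2 fold changes of 0.72 and 0.70. The number called at p below 0.01 depended on single kidneys. It was 77 without LIN28B Wt1 replicate 3, the kidney of litter 2 (93.9%, against 7.7% of all genes). It was 2 without LIN28B Wt1 replicate 1 (2.44%, against 1.79%) and 1 without replicate 2 (1.22%, against 1.8%). Without replicate 1 or replicate 2 of the controls it was also 1 (1.22%, against 1.16% and 1.08%), so in these 4 fits the members' share was near that of all genes. With litter as a block it was 6 (2.24% of all genes).

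By litter the direction turned. In litter 1, 81 of 82 genes were higher in LIN28B Wt1 kidneys than in their littermates, with a median difference of 1.07 on the log2 scale. In litter 2, 71 of 82 were lower, with a median difference of -0.17 between 1 mutant and 1 control kidney. Among the other genes 45.2% and 47% were higher in the mutant in litters 1 and 2.

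Members picked by low p tend to have separate groups. Of the 6 with the lowest p values, 5 had every LIN28B Wt1 kidney above every control. Rps14, a small-subunit protein, measured 560, 580 and 637 CPM in controls and 1074, 1177 and 711 CPM in LIN28B Wt1 kidneys. Every LIN28B Wt1 kidney was above every control, and the log2 fold change was 0.74 with a standard error of 0.17 (edgeR, adjusted p = 0.0731). Rpl15, a large-subunit protein, was at 460, 455 and 519 CPM in controls and 780, 836 and 561 CPM in LIN28B Wt1 kidneys, again without overlap (log2 fold change 0.60, standard error 0.16, edgeR, adjusted p = 0.0897). Rpl27 read 269, 277 and 336 against 541, 570 and 346 CPM, and Rps13 read 171, 200 and 234 against 409, 488 and 238 CPM, both without overlap, but the LIN28B Wt1 kidney of litter 2 was only just above the highest control. Among the highest log2 fold changes were those of Rpl13a (0.94), Rps12 (0.91) and Rps13 (0.91), with adjusted p values of 0.125, 0.15 and 0.093 in edgeR. In all, 9 of the 82 genes had every LIN28B Wt1 kidney above every control, where the exact permutation test reaches its smallest p of 0.1. This share of the members, 11%, was near the 10.3% of all genes.

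A few paralogue rows did not follow the others. Rps4l (ENSMUSG00000063171, chr6:148354656-148355598 in GRCm38), a copy of Rps4x that GENCODE M21 lists as a transcribed processed pseudogene, had the lowest p of all members, with 60.8, 57.4 and 82.4 CPM in controls and 122, 125 and 99.5 CPM in LIN28B Wt1 kidneys (log2 fold change 0.79, standard error 0.18, edgeR, adjusted p = 0.0655). Its reads may be shared with Rps4x, which was at 336, 382 and 515 CPM in controls and 802, 805 and 413 CPM in LIN28B Wt1 kidneys and overlapped. Rpl7l1 (ENSMUSG00000063888, chr17:46773907-46782672), a relative of Rpl7, was nearly constant within groups, at 182, 181 and 181 CPM in controls and 217, 228 and 227 CPM in LIN28B Wt1 kidneys. Its groups did not overlap, with a log2 fold change of 0.31 and a standard error of 0.12 (edgeR, adjusted p = 0.204), the lowest among members with at least 1000 counts in every kidney. Rpl22l1 and its parent Rpl22 differed by log2 fold changes of 0.55 and 0.70, and Rps27l, a p53-induced relative of Rps27, by 0.41 (edgeR, adjusted p = 0.182, 0.13 and 0.321). Rpl3, Rpl7, Rpl10 and Rpl39, the other parents, had log2 fold changes of 0.61, 0.53, 0.53 and 0.87. The nearly empty rows Rpl3l and Rps27 had the other low values, -0.33 and 0.33, with standard errors of 1.41 and 0.90.

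Between let-7 KO and wild-type kidneys, 14 of 82 ribosomal protein genes were higher at p below 0.01 (17.1%) and 0 were lower, against 1.1% and 1.63% of the 15500 genes tested. The median log2 fold change was 0.68, close to that in LIN28B Wt1 kidneys, against -0.02 for all genes. In edgeR 0 of the 82 had an adjusted p below 0.05 (0.0194% of all genes did), while 64 had an unadjusted p below 0.05 (10.8% of all genes), and DESeq2 called 27 at an adjusted p below 0.05 (4.21% of all genes). In both litters 80 of 82 genes were higher in the mutant, by a median of 0.31 on the log2 scale in litter 1 and of 1.39 in litter 2. The count was 64 without let-7 KO replicate 1 (78%, against 3.65% of all genes) and 34 without replicate 2 of the controls (41.5%, against 1.11%). It was 2 without let-7 KO replicate 2 or without replicate 1 or 3 of the controls (2.44%, against 0.274%, 0.503% and 0.398%), and 1 without let-7 KO replicate 3 (1.22%, against 0.313%). With litter as a block it was 5 (0.561% of all genes).

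Rpl14 (ENSMUSG00000025794, chr9:120571444-120574654), a large-subunit protein, had the lowest p in this experiment, with 357, 371 and 306 CPM in controls and 452, 654 and 826 CPM in let-7 KO kidneys (log2 fold change 0.88, standard error 0.22, edgeR, adjusted p = 0.358). Rpl5 (ENSMUSG00000058558, chr5:107900502-107909005), which with Rpl11 and 5S ribosomal RNA forms the particle that holds back Mdm2, had 404, 465 and 394 CPM in controls and 521, 858 and 1001 CPM in let-7 KO kidneys (log2 fold change 0.89, standard error 0.23, edgeR, adjusted p = 0.362). In both genes the groups did not overlap, and the let-7 KO kidneys were far apart from each other. Rps13, Rpl13a, Rps25 and Rpl36a were the next in order of p, with log2 fold changes of 0.90, 0.88, 0.84 and 0.87 and no overlap. In Rps12, which had the highest log2 fold change (0.97), the groups overlapped, at 96.5, 126 and 80.5 CPM in controls and 116, 203 and 283 CPM in let-7 KO kidneys. In all, 17 of the 82 genes had every let-7 KO kidney above every control (20.7%, against 7.87% of all genes). Rpl7l1 was again among the lowest, at 167, 207 and 200 CPM in controls and 201, 226 and 199 CPM in let-7 KO kidneys (log2 fold change 0.11), with Rpl7a (0.23) and the nearly empty Rpl3l (-1.93). Rpl22l1, Rps27l and Rps4l had log2 fold changes of 0.46, 0.42 and 0.33 (edgeR, adjusted p = 0.436, 0.548 and 0.592).

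Genes with a known role of their own had values within the range of the rest. Rps19, Rpl5 and Rpl11, which are mutated in Diamond-Blackfan anaemia, had log2 fold changes of 0.65, 0.85 and 0.81 in LIN28B Wt1 kidneys. In let-7 KO kidneys they were 0.69, 0.89 and 0.73. For the stalk proteins Rplp0, Rplp1 and Rplp2, which bind elongation factors, the LIN28B Wt1 values were 0.45, 0.63 and 0.71 and the let-7 KO values 0.52, 0.71 and 0.76. Fau and Rps27a, made as fusions with a ubiquitin-like protein and ubiquitin, had values of 0.80 and 0.91 with LIN28B and of 0.81 and 0.72 without let-7. Of these 8 genes, Rpl5, Rplp2, Fau and Rps27a were called at p below 0.01 in the LIN28B experiment, and Rpl5 and Rpl11 in the let-7 experiment. None passed an adjusted p of 0.05 in edgeR.

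Between the 2 control groups, and between the effects of the 2 models, no ribosomal protein gene passed p below 0.01. The mixed-strain controls differed from the C57BL/6 controls by a median log2 value of 0.06, with 0 of 82 genes called, also at an unadjusted p below 0.05 in edgeR and in DESeq2, where 4.79% of all 15850 genes passed p below 0.01. Strain and experiment cannot be told apart in this comparison. The test of the LIN28B effect minus the let-7 effect in a fit of all 12 kidneys gave a median of 0.01 and 0 of 82 calls, at p below 0.05 too and with either tool, against 1.55% of all 16598 genes at p below 0.01.

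The members moved with a property of the whole kidney library. For each kidney, a short-transcript score was taken from the genes that are not ribosomal, as the rise in log2 CPM, relative to each gene's mean over the 12 kidneys, per log2 unit by which its transcript is shorter. It was -0.12, -0.07 and 0.02 in C57BL/6 controls, 0.07, 0.06 and -0.11 in LIN28B Wt1, -0.06, 0.07 and -0.12 in mixed-strain controls and -0.02, 0.12 and 0.17 in let-7 KO kidneys. The groups overlapped in both experiments. The LIN28B Wt1 kidney of litter 2 was among the 3 lowest and the let-7 KO kidney of litter 2 was the highest. Ribosomal protein mRNAs had a median length of 774 bases (345 to 5130), and 65 of 85 were of up to 1000 bases, against a median of 2571 for the other genes, while their GC content was 51.8% against 50.6%.

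The median deviation of the 82 genes from their 12-kidney means followed this score with r = 0.917 (rho = 0.909) over 12 kidneys. It was -0.53, -0.40 and -0.09 in C57BL/6 controls, 0.54, 0.63 and -0.25 in LIN28B Wt1, -0.33, 0.03 and -0.60 in mixed-strain controls and -0.12, 0.40 and 0.80 in let-7 KO kidneys, on the log2 scale. Within the LIN28B experiment r was 0.909, within the let-7 experiment 0.976, and over deviations from the group means 0.972, so the relation also held between kidneys of the same genotype. Without the 2 kidneys farthest from the median score, let-7 KO replicates 2 and 3, r was 0.873 over 10. Both axes come from the same libraries. Taken singly, 76 of 82 members (92.7%) had r above 0.8 with the score, against 6.02% of 16516 other genes. The 6 that did not were the nearly empty rows Rpl3l, Rps27, Rpl34 and Rpl30 and the paralogues Rps4l (r = 0.331) and Rpl7l1 (r = 0.389).

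**Figure D2:**
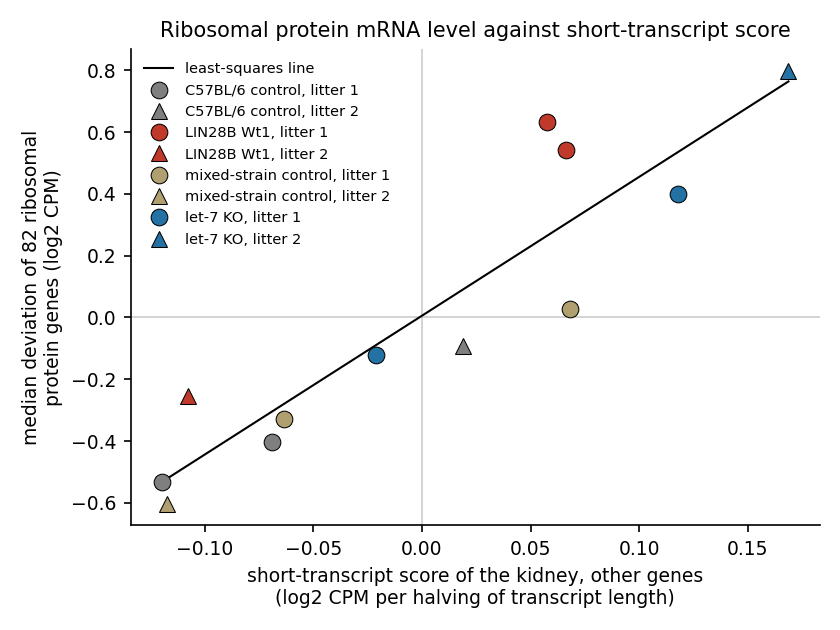
Median deviation of 82 ribosomal protein genes from their 12-kidney means (log2 CPM) against the short-transcript score of the other genes (log2 CPM per log2 unit of shortening), 1 point per kidney, with the least-squares line over all 12. The points rise together (r = 0.917), and the 3 LIN28B Wt1 kidneys lie 0.24, 0.37 and 0.23 above the line.

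The LIN28B Wt1 kidneys stood above the line that relates the 2 measures, by 0.24, 0.37 and 0.23 on the log2 scale. Of the other 9 kidneys, 8 were below it, by up to 0.28, and let-7 KO replicate 3 was above it by 0.03. Other short genes moved less than the members. In LIN28B Wt1 kidneys the median log2 fold change was 0.35 for 224 other genes of up to 500 bases, 0.20 for 1260 above that and up to 1000 bases, 0.04 for 3894 up to 2000 bases, -0.07 for 6492 up to 4000 bases and -0.06 for 3679 longer ones. In let-7 KO kidneys the same classes had medians of 0.44, 0.32, 0.13, -0.11 and -0.15. Both series fell with length over the first 4 classes, and the members exceeded the shortest class in each.

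**Figure D3:**
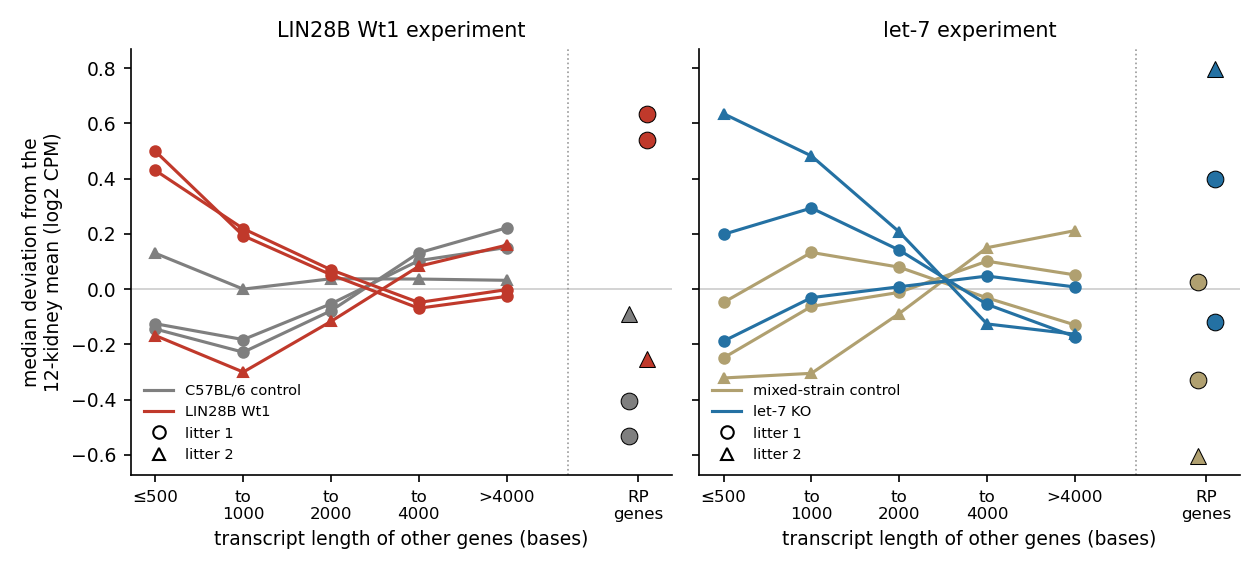
Median deviation from the 12-kidney mean (log2 CPM) of other genes in 5 classes of transcript length (lines, 1 per kidney) and of the 82 ribosomal protein (RP) genes (larger symbols at the right), for the LIN28B and the let-7 experiment, with circles for litter 1 and triangles for litter 2. In let-7 KO replicate 3 the medians run from 0.63 in the shortest to -0.16 in the longest class, with 0.80 for ribosomal protein genes, and the LIN28B Wt1 kidney of litter 2 (triangle) runs from -0.17 to 0.16, with -0.25 for ribosomal protein genes.

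With the score as a covariate, most members were called in LIN28B Wt1 and none in let-7 KO kidneys. In LIN28B Wt1 kidneys 68 of 82 genes were higher at p below 0.01 (82.9%, against 4.95% of all genes) and 57 had an adjusted p below 0.05 in edgeR (69.5%, against 2.91% of all genes), with the median lowered from 0.70 to 0.40. Rpsa (log2 fold change 0.52) and Rps27a (0.55) had the lowest p values, with adjusted p values of 0.00573 and 0.00668 in edgeR. The count was between 53 and 72 without each kidney in turn except without replicate 3 of the C57BL/6 controls, where it was 31 (37.8%, against 3.55% of all genes). It was 72 with litter as a block in the same fit (87.8%, against 5.06%). In let-7 KO kidneys 0 of 82 genes passed p below 0.01 (0.703% of all genes were higher), 5 had an unadjusted p below 0.05 (7.59% of all genes did), and DESeq2 called 2 at p below 0.01 (2.44%, against 2.39% of all genes). At p below 0.01 both shares of the members were near or below those of all genes. At an unadjusted p below 0.05 DESeq2 had 13 higher and 1 lower (11.2% of all genes passed). The median fell to 0.16, and 71 of the 82 log2 fold changes were above 0, against 7896 of all 15500 genes. Fits without 1 kidney gave 0 or 1 calls at p below 0.01 in edgeR. Rpl14 and Rpl5 had the highest values, 0.49 and 0.45. The difference between the models in this fit had a median of 0.26 and was called for 4 of 82 genes (4.88%, against 2.65% of all genes), with 0 at an adjusted p below 0.05 in edgeR. Among them were Rps27a, Rpsa and Rps14, with differences of 0.43, 0.36 and 0.44 and adjusted p values of 0.268, 0.354 and 0.362 in edgeR. At an unadjusted p below 0.05 edgeR had 29 of 82 (9.6% of all genes), and 80 of the 82 differences were above 0. DESeq2 called 15 at p below 0.01 (5.08% of all genes) and 2 at an adjusted p below 0.05 (2.45% of all genes), so whether the models differed for a member depended on the tool. In each experiment the mean score was higher in the mutant group, from 6 kidneys, and the parts of score and genotype in the members' level cannot be told apart.

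**Figure D4:**
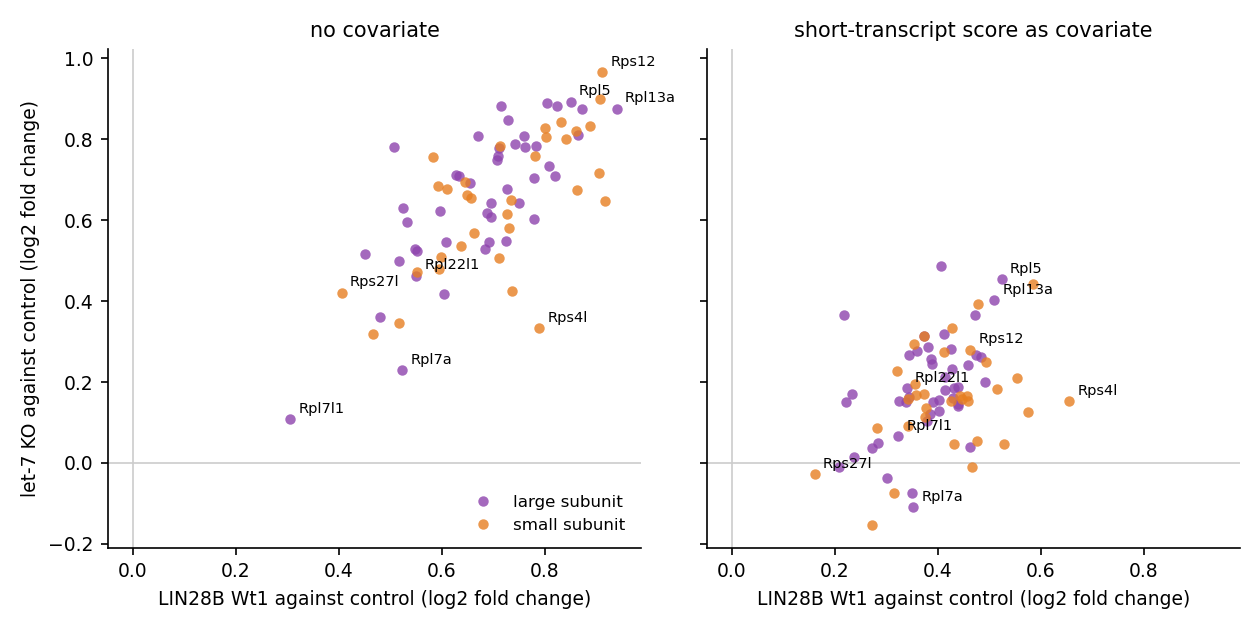
Log2 fold change of 78 ribosomal protein genes with at least 1000 counts in every kidney, in LIN28B Wt1 (horizontal) and let-7 KO kidneys (vertical), each against its own controls, without (left) and with (right) the short-transcript score as covariate. Without it the genes lie between 0.31 and 0.94 and between 0.11 and 0.97, and with it they move towards 0, more so on the let-7 axis (medians of all 82 genes 0.40 and 0.16).

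Scaled to the sum of the members, no member was called, in a test that can hardly call one. When each kidney was scaled to the sum of its ribosomal protein counts, 0 of 82 genes passed p below 0.01 in edgeR in LIN28B Wt1 kidneys (7.55% of all genes did) or in let-7 KO kidneys (2.97% of all genes), and 0 passed an unadjusted p below 0.05 in either. This scaling moved the median log2 fold change of all genes to -0.61 and -0.64. Relative log2 fold changes of the 78 well-counted members ranged from -0.30 (Rpl7l1) to 0.23 (Rpl13a) in LIN28B Wt1 and from -0.51 (Rpl7l1) to 0.27 (Rps12) in let-7 KO kidneys. Between their fold changes and their own log2 transcript lengths r was -0.03 with LIN28B and -0.05 without let-7, across genes, which are not independent replicates. Without Rps15a and Rps20, which have by far the longest annotated transcripts of the 78, it was -0.15 in both. Within a kidney the middle 50% of members lay in a band of 0.08 to 0.25 on the log2 scale. Their SD, nearly empty rows included, was 0.19 to 0.49. The kidney medians lay up to 1.40 apart, which is a full range over kidneys and a different measure of spread.

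Other genes of translation were compared with the members by lists chosen with these data known. Genes of ribosome assembly, which make and process ribosomal RNA in the nucleolus, were higher at p below 0.01 for 19 of 53 in LIN28B Wt1 kidneys (35.8%, against 3.25% of all genes), 6 of them at an adjusted p below 0.05 in edgeR, and for 1 of 53 in let-7 KO kidneys (1.89%, near the 1.1% of all genes), with median log2 fold changes of 0.48 and 0.13. With the score as covariate 24 and 1 were higher (4.95% and 0.703% of all genes) and the medians were 0.43 and 0.15. The difference between the models was called above 0 for 4 of 53 without the score (7.55%, against 0.512% of all genes) and 7 with it (13.2%, against 0.898%), with 0 at an adjusted p below 0.05 in edgeR. Unlike the members, this list was higher in the litter 2 LIN28B Wt1 kidney as well, with median deviations of 0.39, 0.43 and 0.23, against -0.23, -0.16 and -0.05 in control kidneys. Of 19 other mRNAs with a TOP tract, such as those of elongation factors, 7 were higher with LIN28B (36.8%) and 3 without let-7 (15.8%), with medians of 0.51 and 0.54, and with the covariate 10 and 1 (52.6% and 5.26%), with medians of 0.32 and 0.17. Of 11 genes that control the translation of TOP mRNAs, 1 was higher with LIN28B (9.09%, against 3.25% of all genes) and 0 without let-7. The 1 called was Eif4ebp1 (log2 fold change 0.60). Mtor (-0.52) and Larp1 (0.28), also in this list, were not called in LIN28B Wt1 kidneys. The 77 mitochondrial ribosomal proteins had 0 and 1 calls (1.3% in let-7 KO, near the share of all genes) and medians of 0.31 and 0.34, and 84 tested genes of oxidative phosphorylation had 1 lower in LIN28B Wt1 and 1 higher in let-7 KO kidneys with medians of 0.18 and 0.37. For these 2 lists the medians with the covariate were 0.14 and 0.08, and -0.03 and -0.0030.

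Some lists of cell type markers moved with the LIN28B Wt1 group, and fewer with the let-7 KO group. In LIN28B Wt1 kidneys 3.25% of all genes were higher and 4.08% lower at p below 0.01. Of 9 tested markers of the cap mesenchyme, the nephron progenitors, 7 were higher and 1 lower, and the summed level of the list of 10 was 446 to 608 CPM in LIN28B Wt1 and 225 to 250 CPM in control kidneys. Of 10 proximal tubule markers 6 were lower (1228 to 1658 against 2956 to 3069 CPM) and of 6 markers of cycling cells 3 were higher (1201 to 1279 against 932 to 967 CPM). All 3 loop and distal markers and 1 of 5 tested leukocyte markers were lower. Of 6 podocyte and 3 collecting duct markers 0 were called. In let-7 KO kidneys 1.1% of all genes were higher and 1.63% lower at p below 0.01. Here 2 of the 9 cap mesenchyme markers were higher, Gdnf and Tmem100, with log2 fold changes of 2.20 and 1.14. Tmem100 was the marker that was lower in LIN28B Wt1 kidneys (-0.67). Six2, Cited1 and Eya1 were not called in let-7 KO kidneys. The list of 10 summed to 201 to 219 CPM there, against 139 to 221 CPM in controls. Of the 10 proximal tubule markers 3 were lower (sum 3035 to 4116 against 3570 to 4628 CPM). Of the 6 cycling markers 0 were called, and the cycling sum was 778 to 828 against 712 to 855 CPM. No podocyte, loop and distal, collecting duct, leukocyte or erythroid marker was called in let-7 KO kidneys. Erythroid markers summed to 42.8 to 81.1 CPM in LIN28B Wt1 and 62.6 to 87.2 CPM in control kidneys. Of the 3 tested, Slc4a1 was lower at p below 0.01 in LIN28B Wt1 kidneys (log2 fold change -1.37, edgeR, adjusted p = 0.0731). The other 4 of the 7 rows, Hba-a1, Hba-a2, Hbb-bs and Hbb-bt, were at 0 in all 12 kidneys. Those rows are uncertain as a measure of their mRNAs. The part of these cell types in the level of the ribosomal protein genes was not tested.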

How the data were processed

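RNA from 12 kidneys was isolated with Trizol and made into libraries with a SMARTer Ultra Low RNA kit. The submitters' processing notes name cutadapt, TopHat2 2.0.9, Bowtie2, SAMtools 0.1.19, HTSeq and build mm10. The authors deposited raw counts of reads per gene symbol, without normalization. How reads of near-identical genes were counted is not given in the sources used here. Counts were fitted with edgeR 4.0.16 in R 4.3.3 (TMM, filterByExpr with a minimum count of 10 and total of 15, quasi-likelihood test, Benjamini-Hochberg adjustment), 3 kidneys against 3, and the difference between models over 12. Calls used the study's p below 0.01. DESeq2 1.42.0 was an alternative. A standard error is the fitted log2 fold change over the root of its F statistic. CPM are TMM-normalised, log2 CPM with a prior count of 1. Lengths were the median over a gene's basic transcripts (GENCODE M21, 98.2% of symbols matched). Scripts were tested on simulated data. The members, lists and tests were chosen with earlier results of these data known. Named genes were the 6 members of lowest p per model, the 3 highest and lowest fold changes, paralogue rows and their parents, the 5 highest per kilobase, Diamond-Blackfan genes, stalk and fusion proteins, and nearly empty rows. Rpsa, and the other values from the covariate fits, and the TOP and let-7 examples, and the lengths without the longest members, were chosen after values were seen. Some genes that the rule names are not reported here. Litter numbers, given in the labels, pair the kidneys as littermates. Deviations in the same litter correlated by -0.03 and 0.0020 on average, so litter was a block only in alternatives. The study calls the 3 kidneys of a group biological replicates, and p-values measure the spread between these kidneys.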

Additional observations from a re-analysis of the deposited data

Results flagged for a closer look

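The effects of the 2 models differed at p below 0.01 in edgeR for 4 ribosomal protein genes in the fit with the short-transcript score as covariate, an alternative to the fit without it, in which none did. These were 4.88% of the members, against 2.65% of all genes. DESeq2 called 15 in the same fit (5.08% of all genes), so the count depended on the tool. On the log2 scale the LIN28B effect exceeded the let-7 effect by 0.43 for Rps27a, 0.36 for Rpsa and 0.44 for Rps14, and none of the 4 passed an adjusted p of 0.05 in edgeR. The difference between LIN28B Wt1 and control kidneys turned between litters, with a median over 82 members of 1.07 in litter 1, where both mutant kidneys were above both controls, and -0.17 in litter 2, which had 1 kidney of each, and this difference between litters was not tested.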

How the results depend on the processing

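The median member log2 fold change stayed above 0 in both models in every alternative run other than scaling to the sum of the members, which by construction puts it near 0 (0.024 and 0.0041), while the number of members called moved with most of them. In LIN28B Wt1 kidneys (34 called) the count was 21 with upper-quartile scaling, 55 without a low-count filter, 57 with at least 1 CPM in every kidney, 71 in DESeq2, 17 in one fit of all 12 kidneys, 68 with the score as covariate, 0 when scaled to the sum of the members, 0 at an adjusted p below 0.05, 6 with litter as a replicate block, 72 with block and covariate, and 1 to 77 without single kidneys. Of all genes 3.25% were higher in the main fit, 5.51% in DESeq2, 4.95% with the covariate and 2.24% with the block. Without single kidneys this share was 1.08% to 7.7%. For the settings of scaling, filter and one fit of 12 kidneys it is not given, so these counts cannot be read as changes in the members alone. With the covariate (68), the count was 31 to 72 without single kidneys (2.14% to 4.71% of all genes). In let-7 KO kidneys (14 called) it was 30 without a filter and 30 with the 1 CPM filter, 55 in DESeq2, 5 with the replicate block, 0 with the covariate, 0 with block and covariate, 0 when scaled to the members, 0 at an adjusted p below 0.05, and 1 to 64 without single kidneys. In this experiment 1.1% of all genes were higher in the main fit, 2.97% in DESeq2, 0.703% with the covariate and 0.561% with the block. Without single kidneys the share was 0.274% to 3.65%. The median of the members in let-7 KO kidneys was 0.16 with the covariate and 0.16 with block and covariate. In the covariate fit, DESeq2 gave 2 (2.39% of all genes) and fits without single kidneys 0 to 1 (0.2% to 1.33%). Rps27l in let-7 KO turned to -0.028 with the covariate and -0.0279 with block and covariate. Between the controls the median (0.06) turned to -0.011 with library totals and -0.0078 with the covariate, and was -0.11 to 0.21 without single kidneys, with 0 to 1 calls. The difference between models gave 4 calls with the covariate (2.65% of all genes). The correlation with the score was 0.864 from genes of at least 5 CPM, 0.881 with library totals and 0.884 to 0.939 without single kidneys. The causes were not tested. Removing a kidney left 2 against 3, and a lone litter 2 kidney carries the litter comparison. Depth did not limit the well-counted members. How near-identical copies were counted is not known, so the nearly empty rows are uncertain.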
